A study of Mus musculus with 6 samples.

Results

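Among the receptors through which monocytes read growth factors and cytokines, 10 genes were followed in splenic monocytes by RNA sequencing. The mice were with (IL-4Rα+/+) or without (IL-4Rα-/-) the alpha chain of the interleukin-4 receptor. The genes form a hand-written list, with no threshold on their values. They are *Csf1r*, *Csf2ra*, *Csf2rb*, *Csf2rb2*, *Csf3r*, *Il6ra*, *Il10ra*, *Ifngr1*, *Ifngr2* and *Ifnar1*, that is, 10 of the 55421 genes in the files and 10 of the 13849 with enough counts to be tested. The libraries came from 6 mice of the strain C57BL/6, with 1 library per mouse, 3 IL-4Rα+/+ and 3 IL-4Rα-/-. The IL-4Rα-/- mice lacked that chain in all cells, and the labels list no treatment. The labels give neither the age nor the sex of these mice. Monocytes were taken from the spleen by negative selection, in which antibodies bind other leukocytes and leave monocytes untouched.

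The receptor for macrophage colony-stimulating factor, encoded by *Csf1r*, is a tyrosine kinase and keeps monocytes and macrophages alive. *Csf3r*, *Csf2ra*, *Csf2rb* and *Csf2rb2* encode cytokine receptor chains that have no kinase of their own and signal through Janus kinases. *Csf2ra* binds granulocyte-macrophage colony-stimulating factor (GM-CSF). *Csf2rb* encodes the common beta chain, which joins the alpha chains for GM-CSF, interleukin-3 and interleukin-5, whereas the mouse chain encoded by *Csf2rb2* serves interleukin-3. *Il6ra*, *Il10ra* and *Ifngr1* encode ligand-binding chains for interleukin-6, interleukin-10 and interferon gamma, and *Ifngr2* is the partner of *Ifngr1*. *Ifnar1* encodes a chain of the receptor for type I interferons.

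*Csf2rb* and *Csf2rb2* are near copies of each other, so their sequences show how far short reads can tell them apart. Both lie on chromosome 15 of GRCm38, *Csf2rb* on the plus strand at chr15:78325752-78353847 and *Csf2rb2* on the minus strand at chr15:78282507-78305721. Their coding sequences of 2691 and 2637 bases were aligned over 2631 bases, of which 2505 were identical (95.2%) and 126 differed. Among 2261 aligned windows of 1 read length, 75 bases, 413 were identical (18.3%), the median window held 2 differences and the most different window held 14. In all, 10.7% of the windows of the *Csf2rb* transcript and 11.1% of those of the *Csf2rb2* transcript occurred in the other gene. Reads from such windows map to 2 places and were left out by the authors' counting of uniquely mapped reads. The first identical window covers coding bases 485 to 559 of *Csf2rb*, with 74 of its bases in exon 6 of 15 (chr15:78340528-78340601), and 488 to 562 of *Csf2rb2*, with 74 bases in exon 5 of 14 (chr15:78292708-78292781). The most different window covers coding bases 316 to 390 of *Csf2rb* in exon 5 (chr15:78338905-78338979), and 319 to 393 of *Csf2rb2* in exon 4 (chr15:78294352-78294426). It is shown with the differing bases in capitals.
Csf2rb, identical window: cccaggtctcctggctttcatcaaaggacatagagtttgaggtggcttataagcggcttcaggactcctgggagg
Csf2rb2, identical window: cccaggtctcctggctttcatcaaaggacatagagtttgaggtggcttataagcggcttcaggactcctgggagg
Csf2rb, most different window: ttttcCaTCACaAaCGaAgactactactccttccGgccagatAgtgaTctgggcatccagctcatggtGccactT
Csf2rb2, most different window: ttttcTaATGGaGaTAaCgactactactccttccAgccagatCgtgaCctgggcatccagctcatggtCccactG
Outside this pair, at most 3.2% of the windows of any member's transcript occurred in another gene, the highest share being that of *Csf3r*.

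Each library held 26807281 to 29033297 reads on genes, and levels are in CPM, counts brought to a common library size after TMM normalization. The deleted gene, *Il4ra*, stood at 137, 128 and 177 CPM in IL-4Rα+/+ replicates 1, 2 and 3 and at 27.9, 79.4 and 31.8 CPM in IL-4Rα-/- replicates 1, 2 and 3. The genotypes did not overlap, and IL-4Rα-/- replicate 2 kept the most *Il4ra* reads. The files count reads over the whole gene, so deleted exons were not seen apart from the rest. The log2 fold change of *Il4ra* was -1.67 ± 0.41 (SE), with an adjusted p of 0.618 in edgeR and of 0.0111 in DESeq2. The libraries of IL-4Rα+/+ replicate 3 and IL-4Rα-/- replicate 2 stood apart from the others by their markers of classical, Ly6C high monocytes. The 6 markers of that subset summed to 1266, 3013 and 7222 CPM in IL-4Rα+/+ and 2874, 9348 and 3312 CPM in IL-4Rα-/- replicates 1, 2 and 3. The 8 markers of patrolling, Ly6C low monocytes ran the other way, with 9904, 8091 and 4874 CPM in IL-4Rα+/+ and 6860, 3463 and 6596 CPM in IL-4Rα-/-. Markers of red pulp macrophages summed to 3752 to 4260 CPM in IL-4Rα+/+ and 4813 to 7653 CPM in IL-4Rα-/-, with 12 of 12 higher in IL-4Rα-/- and 7 at an unadjusted p under 0.05. Neutrophil markers summed to 62.7 to 276 CPM in IL-4Rα+/+ and 128 to 722 CPM in IL-4Rα-/-, with 11 of the 12 tested higher and 5 at an unadjusted p under 0.05, and *Ly6g*, which defines neutrophils, was at 0 to 0.315 CPM. Eosinophil, basophil and mast cell markers summed to 79.6 to 86.9 CPM in IL-4Rα+/+ and 127 to 193 CPM in IL-4Rα-/-, with 11 of 12 higher, 9 at an unadjusted p under 0.05 and 8 without overlap. Pancreatic acinar markers reached 356 CPM in IL-4Rα-/- replicate 2, beside 10.5 to 53.2 CPM in the other libraries. Cells of other kinds also carry several of the receptors, and the part of these markers in the results was not tested.

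The receptor genes were well covered, with 1621 to 88077 counts per library. To compare genes with each other, CPM were divided by the length of each gene's exons in kilobases. *Csf1r* had the highest level per length, at 456 ± 57.5 CPM per kb (SD, n = 6), and ranked at place 61 of 13842 tested genes with a known length. Its 6 values, 386 to 536 CPM per kb, lay above every value of the other members. *Ifngr1* followed at 289 ± 24.9 CPM per kb, *Csf2ra* at 223 ± 25.8 CPM per kb and *Il10ra* at 166 ± 28.1 CPM per kb. The ranges of *Csf2ra* and *Il10ra* overlapped, although *Csf2ra* was higher within 6 of 6 libraries. *Csf3r*, better known from neutrophils, stood at 102 ± 14.9 CPM per kb, and its range overlapped that of *Il6ra* at 79.3 ± 6.55 CPM per kb, with *Csf3r* higher in 5 of 6 libraries. *Ifngr2* and *Csf2rb* were not separated, at 60.1 ± 3.31 and 56.0 ± 12.6 CPM per kb, with *Ifngr2* higher in 4 of 6 libraries. *Ifnar1* reached 31.7 ± 1.84 CPM per kb and *Csf2rb2* was last at 18.3 ± 4.08 CPM per kb, place 2931 of 13842. In the pairs of chains among the members, *Ifngr1* lay above *Ifngr2* and *Csf2ra* above *Csf2rb* per length, in ranges that did not overlap. With the longest transcript as the length, *Csf2rb* moved from place 8 to place 6, at 83.2 CPM per kb.

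**Figure D1:**
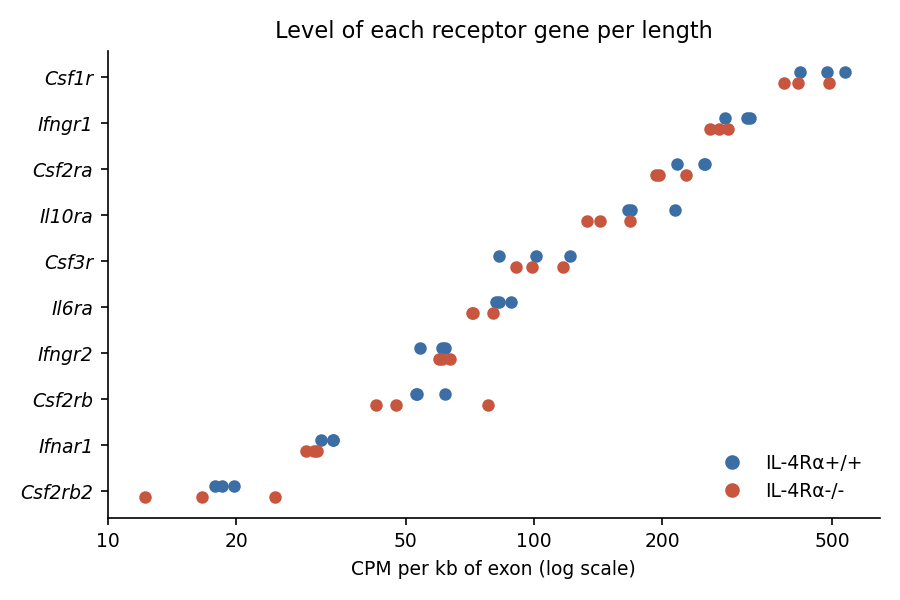
Level of each receptor gene in CPM per kb of exon on a log scale, with 1 point per library and the genotypes in separate colours. *Csf1r* (mean 456) lies above all other members and *Csf2rb2* (mean 18.3) below them. The points of the genotypes lie close together except for *Csf2rb* and *Csf2rb2*. For these the IL-4Rα-/- points spread to both sides of the IL-4Rα+/+ points (SD 19.3 beside 5.08 for *Csf2rb*, 6.34 beside 0.954 for *Csf2rb2*).

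No receptor gene differed between the genotypes by the study's threshold, an adjusted p under 0.15. In edgeR's quasi-likelihood test adjusted p-values of the members ran from 0.618 to 0.998, and 0 of 10 had an unadjusted p under 0.05. DESeq2 also called 0 of 10, with a smallest adjusted p of 0.639 and 0 at an unadjusted p under 0.05. Over all 13849 genes edgeR called 0 (0%), and 1120 (8.09%) had an unadjusted p under 0.05. DESeq2, which was given all 55421 genes in the files, called 80. The fold changes were small, between -0.31 and 0.06 on the log2 scale with a median of -0.14. Of the 10, 7 were negative and 3 positive, beside 48.5% negative and a median of 0.01 over all genes tested. The 95% intervals of the members lay between -0.64 and 0.55, so a 2-fold difference lay outside the interval for 10 of 10 genes. The genotypes' values did not overlap for 2 of the 10, *Il6ra* and *Ifnar1*, both lower in IL-4Rα-/-, and 0 were higher without overlap. Over all genes tested, 7.87% were lower and 7.63% higher in IL-4Rα-/- without overlap. Since whole preparations were sequenced, fewer cells of a type and less RNA per cell cannot be told apart.

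**Figure D2:**
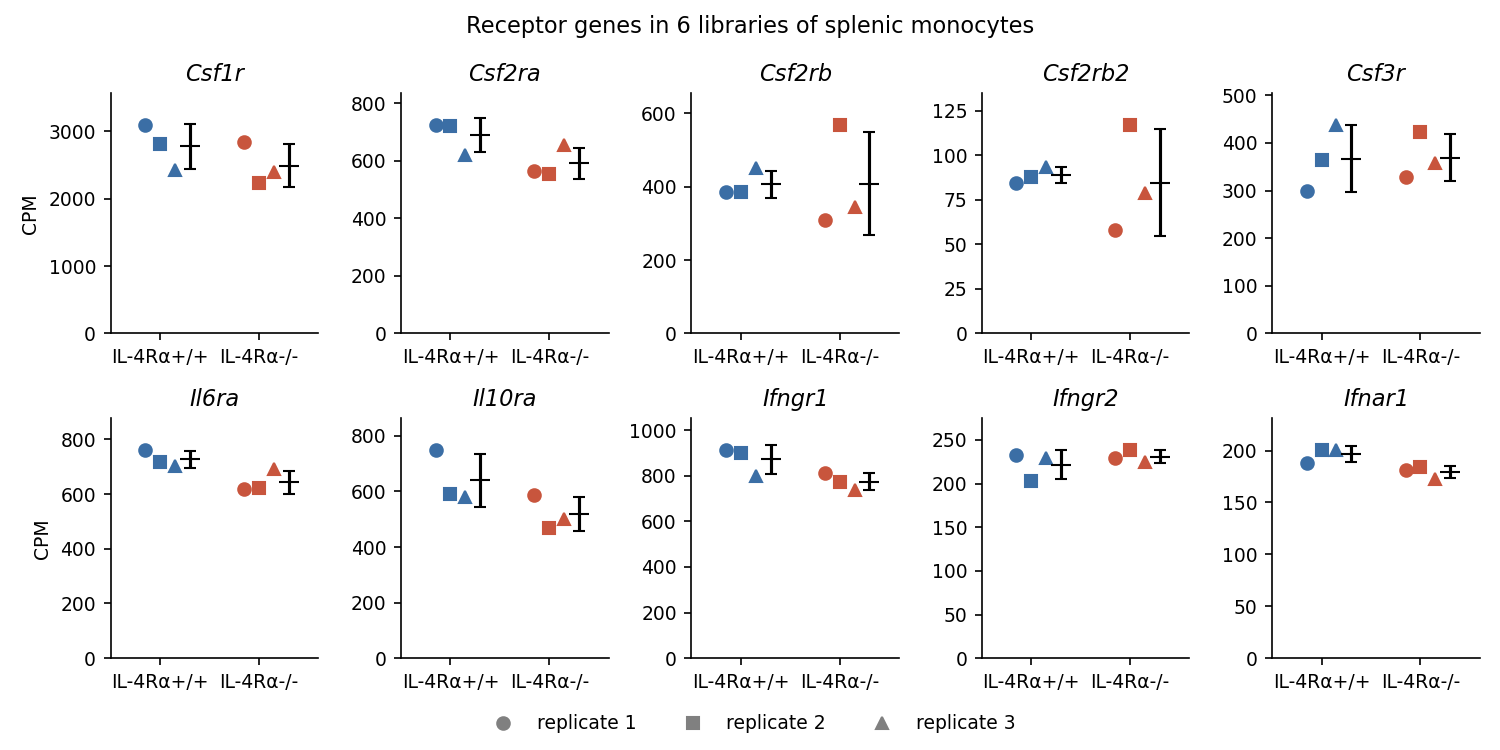
CPM of the 10 receptor genes in each library, with replicates as shapes, genotypes as colours, and the mean ± SD (n = 3) of each genotype in black. The genotypes overlap for 8 genes and not for *Il6ra* and *Ifnar1*, and *Csf2rb* and *Csf2rb2* are highest in IL-4Rα-/- replicate 2.

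Among the growth factor receptors, *Csf1r* (chromosome 18, 61100598 to 61132149, plus strand) had 3095, 2811 and 2425 CPM in IL-4Rα+/+ replicates 1, 2 and 3 and 2839, 2227 and 2398 CPM in IL-4Rα-/- replicates 1, 2 and 3. The values of the genotypes overlapped, with means of 2777 ± 336 and 2488 ± 316 CPM (SD, n = 3 each). The log2 fold change was -0.16 ± 0.13 (SE), with a 95% interval from -0.47 to 0.15 and an adjusted p of 0.729 in edgeR. *Csf1r* overlaps an antisense gene, *Hmgxb3*, and the strand counted by the authors is not given in the sources used here, so a share of its counts is uncertain.

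*Csf3r*, the receptor of granulocyte colony-stimulating factor (chromosome 4, 126024550 to 126044440, plus strand), had 299, 364 and 438 CPM in IL-4Rα+/+ and 328, 423 and 357 CPM in IL-4Rα-/- replicates 1, 2 and 3. Its values spread widely within both genotypes and their means were nearly equal, at 367 ± 69.6 and 370 ± 48.7 CPM (SD, n = 3 each). The log2 fold change was 0.01 ± 0.16 (SE), and its sign turned to -0.12 without IL-4Rα+/+ replicate 1 and to -0.10 without IL-4Rα-/- replicate 2.

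*Csf2ra* (chromosome 19, 61223957 to 61228429, minus strand) had 725, 721 and 621 CPM in IL-4Rα+/+ and 564, 555 and 654 CPM in IL-4Rα-/- replicates 1, 2 and 3. Only IL-4Rα+/+ replicate 3 and IL-4Rα-/- replicate 3 crossed, and the log2 fold change was -0.22 ± 0.10 (SE) with an adjusted p of 0.62 in edgeR and an interval from -0.47 to 0.02. *Csf2rb* had 387, 385 and 450 CPM in IL-4Rα+/+ and 310, 569 and 345 CPM in IL-4Rα-/- replicates 1, 2 and 3. IL-4Rα-/- replicate 2 was the highest of the 6 libraries and the other IL-4Rα-/- libraries the lowest. The log2 fold change was 0.003 ± 0.23 (SE), and -0.31 without IL-4Rα-/- replicate 2, with an adjusted p of 0.851 in edgeR. *Csf2rb2* had 84.6, 87.8 and 93.5 CPM in IL-4Rα+/+ and 57.9, 117 and 78.8 CPM in IL-4Rα-/- replicates 1, 2 and 3. It followed the order of *Csf2rb* in IL-4Rα-/-, and its log2 fold change was -0.07 ± 0.24 (SE), or -0.37 without IL-4Rα-/- replicate 2 and 0.14 without IL-4Rα-/- replicate 1. With the counts of both copies summed, the log2 fold change was -0.01.

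Of the receptors for interleukins, *Il6ra* (chromosome 3, 89864059 to 89913196, minus strand) had 763, 717 and 703 CPM in IL-4Rα+/+ and 618, 621 and 691 CPM in IL-4Rα-/- replicates 1, 2 and 3. The 3 IL-4Rα-/- values lay below the 3 IL-4Rα+/+ values, and the nearest pair, 703 and 691 CPM, almost met. The log2 fold change was -0.18 ± 0.08 (SE), or 0.884-fold, with an unadjusted p of 0.0644 and an adjusted p of 0.618 in edgeR. *Il10ra* (chromosome 9, 45253837 to 45269149, minus strand) had 751, 591 and 580 CPM in IL-4Rα+/+ and 587, 467 and 501 CPM in IL-4Rα-/- replicates 1, 2 and 3. IL-4Rα-/- replicate 1 reached into the IL-4Rα+/+ values and the other two lay below them. Its log2 fold change, -0.31 ± 0.14 (SE) or 0.808-fold, was the most negative of the 10 members, with an interval from -0.63 to 0.02 and an adjusted p of 0.618 in edgeR. Both genes overlap an antisense gene, *Gm42809* and *Gm20612*, so some of their counts are uncertain.

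Among the interferon receptors, *Ifngr1* (chromosome 10, 19591949 to 19610229, plus strand) had 915, 901 and 800 CPM in IL-4Rα+/+ and 812, 772 and 738 CPM in IL-4Rα-/- replicates 1, 2 and 3. Only IL-4Rα+/+ replicate 3 fell inside the IL-4Rα-/- range, and the log2 fold change was -0.17 ± 0.08 (SE) with an adjusted p of 0.626 in edgeR. Its partner *Ifngr2* (chromosome 16, 91547072 to 91565623, plus strand) had 233, 203 and 229 CPM in IL-4Rα+/+ and 229, 239 and 225 CPM in IL-4Rα-/- replicates 1, 2 and 3. The values overlapped, and the log2 fold change was 0.06 ± 0.08 (SE). *Ifnar1*, on the same chromosome at 91485238 to 91507441, had 188, 201 and 201 CPM in IL-4Rα+/+ and 181, 184 and 173 CPM in IL-4Rα-/- replicates 1, 2 and 3. The genotypes did not overlap but lay close together, and the log2 fold change was -0.13 ± 0.07 (SE), or 0.914-fold, with an unadjusted p of 0.107 and an adjusted p of 0.639 in edgeR.

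**Figure D3:**
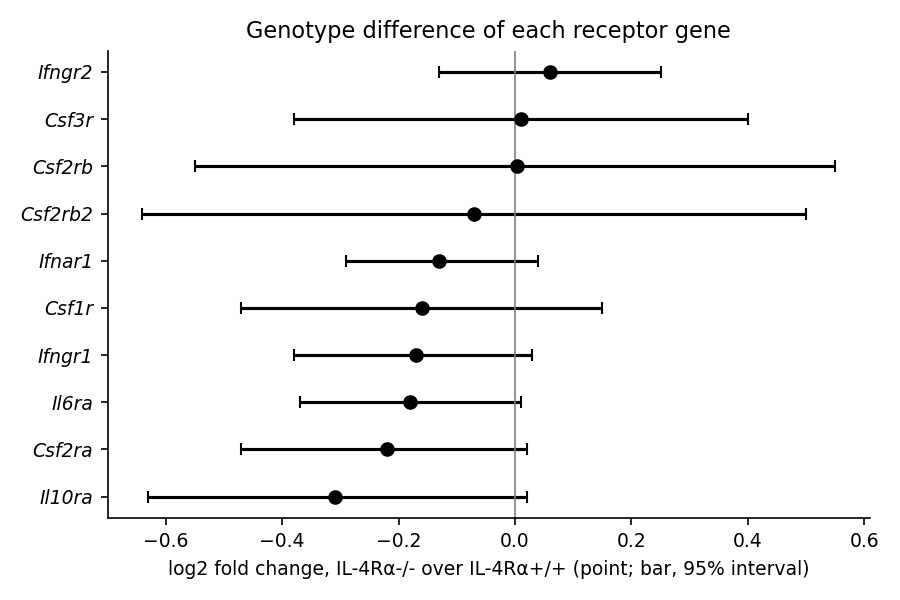
Log2 fold change of each receptor gene, IL-4Rα-/- over IL-4Rα+/+, as points with 95% intervals as bars. Every interval includes 0, from *Il10ra* at -0.31 to *Ifngr2* at 0.06, and *Csf2rb* and *Csf2rb2* have the widest intervals.

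The balance between chains and between growth factor receptors was compared as a ratio of counts within each library, by an exact two-sided permutation over the 20 labelings of the mice, with 0.10 as the smallest p it allows. The ratio of *Csf3r* to *Csf1r* was 0.0966, 0.13 and 0.181 in IL-4Rα+/+ and 0.116, 0.19 and 0.149 in IL-4Rα-/- replicates 1, 2 and 3. The genotypes overlapped, with a log2 difference of 0.18 (exact p = 0.70). The ratio of *Csf2rb2* to *Csf2rb* was steady at 0.208 to 0.228 in IL-4Rα+/+ and 0.187 to 0.228 in IL-4Rα-/- (log2 difference -0.08, exact p = 0.50). *Csf2ra* to *Csf2rb* was 1.87, 1.87 and 1.38 in IL-4Rα+/+ and 1.82, 0.975 and 1.9 in IL-4Rα-/- replicates 1, 2 and 3 (log2 difference -0.18, exact p = 0.70). It was lowest in the 2 libraries with the most Ly6C high markers. *Ifngr1* to *Ifngr2* was 3.93, 4.44 and 3.49 in IL-4Rα+/+ and 3.55, 3.23 and 3.28 in IL-4Rα-/- replicates 1, 2 and 3 (log2 difference -0.23, exact p = 0.20). It was the ratio with the smallest p of the 4 compared. The first ratio changed to -0.04 without IL-4Rα+/+ replicate 1 and to -0.0004 without IL-4Rα-/- replicate 2, and that of *Csf2ra* to *Csf2rb* to 0.13 without IL-4Rα-/- replicate 2.

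Part of the spread between mice of the same genotype ran with the Ly6C markers. The marker balance, the log2 of the summed Ly6C high over the summed Ly6C low markers, was -2.97, -1.42 and 0.57 in IL-4Rα+/+ and -1.26, 1.43 and -0.99 in IL-4Rα-/- replicates 1, 2 and 3. Its means were -1.27 ± 1.77 in IL-4Rα+/+ and -0.27 ± 1.48 in IL-4Rα-/- (SD, n = 3 each). In IL-4Rα-/-, 6 of 6 Ly6C high markers were higher and 8 of 8 Ly6C low markers lower, with 0 at an unadjusted p under 0.05 in edgeR. No member belongs to either marker list. In an edgeR fit with genotype and the marker balance, chosen after the values were seen, 4 of the 10 members passed an adjusted p under 0.15 for the balance, beside 22.6% of all genes tested. *Csf3r* rose by 0.14 ± 0.022 (SE) log2 units per log2 unit of the balance (adjusted p = 0.0139), and *Csf2rb* by 0.17 ± 0.053 (adjusted p = 0.105). *Csf1r* fell by 0.10 ± 0.025 (adjusted p = 0.0589) and *Il10ra* fell by 0.10 ± 0.031 (adjusted p = 0.105). Over the whole span of the balance, 4.40 log2 units, the fitted change was 0.62 for *Csf3r* and -0.44 for *Csf1r*. That span is set by the most extreme libraries and is not comparable to a difference of genotype means. *Csf2rb2* had a slope of 0.16 (adjusted p = 0.187) and *Csf2ra* of -0.06 (adjusted p = 0.267), and the slopes of *Il6ra*, *Ifngr1*, *Ifngr2* and *Ifnar1* lay between -0.04 and 0.02.

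The calls depended on which library was left out, most on the 2 with the most Ly6C high markers, the slopes mostly less so. Without IL-4Rα+/+ replicate 3, 0 of the 10 members passed in edgeR (4.56% of all genes did), and 3 had an unadjusted p under 0.05 (14.6% of all genes). The slopes in that fit were 0.14 for *Csf3r*, 0.25 for *Csf2rb*, -0.10 for *Csf1r* and -0.12 for *Il10ra*. Without IL-4Rα-/- replicate 2 only *Csf3r* passed (8.10% of all genes), with slopes of 0.16 for *Csf3r*, -0.10 for *Csf1r* and -0.10 for *Il10ra*, while that of *Csf2rb* went to 0.07. Without IL-4Rα-/- replicate 1, 2 of the 10 members passed, *Csf1r* and *Csf3r* (11.5% of all genes). *Csf3r* passed in 5 of the 6 fits that left out 1 library, *Csf1r* in 4, and *Csf2rb* and *Il10ra* in 2 each. *Csf2rb* was also lost without IL-4Rα-/- replicate 3, and *Il10ra* without IL-4Rα+/+ replicate 1. As a description over 6 libraries, Pearson's r between log2 CPM and the balance was 0.93 for *Csf3r* and -0.91 for *Csf1r* (Spearman's rho 0.77 and -0.89). Without the 2 libraries farthest from the median balance, IL-4Rα+/+ replicate 1 and IL-4Rα-/- replicate 2, r was 0.91 for *Csf3r* and -0.67 for *Csf1r*. That of *Il10ra* went from -0.80 to 0.07. The sum of neutrophil markers was highest in IL-4Rα+/+ replicate 3 and IL-4Rα-/- replicate 2, at 276 and 722 CPM. *Mmp8* made up 170 and 305 CPM of these sums. Of the 12 neutrophil markers tested, 2, *Mmp8* and *Lcn2*, had their highest values in these 2 libraries, and 11 were highest in IL-4Rα-/- replicate 2. Their part in the values of *Csf3r* was not tested. With the balance as a covariate, 0 of 10 members differed between genotypes in edgeR at an adjusted p under 0.15. An unadjusted p under 0.05 was reached by 1, *Ifnar1*, and the share of all genes in that fit is not given here. For the 4 members that passed for the balance, the genotype log2 fold change in that fit was -0.12 for *Csf3r*, -0.21 for *Csf2rb*, -0.06 for *Csf1r* and -0.21 for *Il10ra*.

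**Figure D4:**
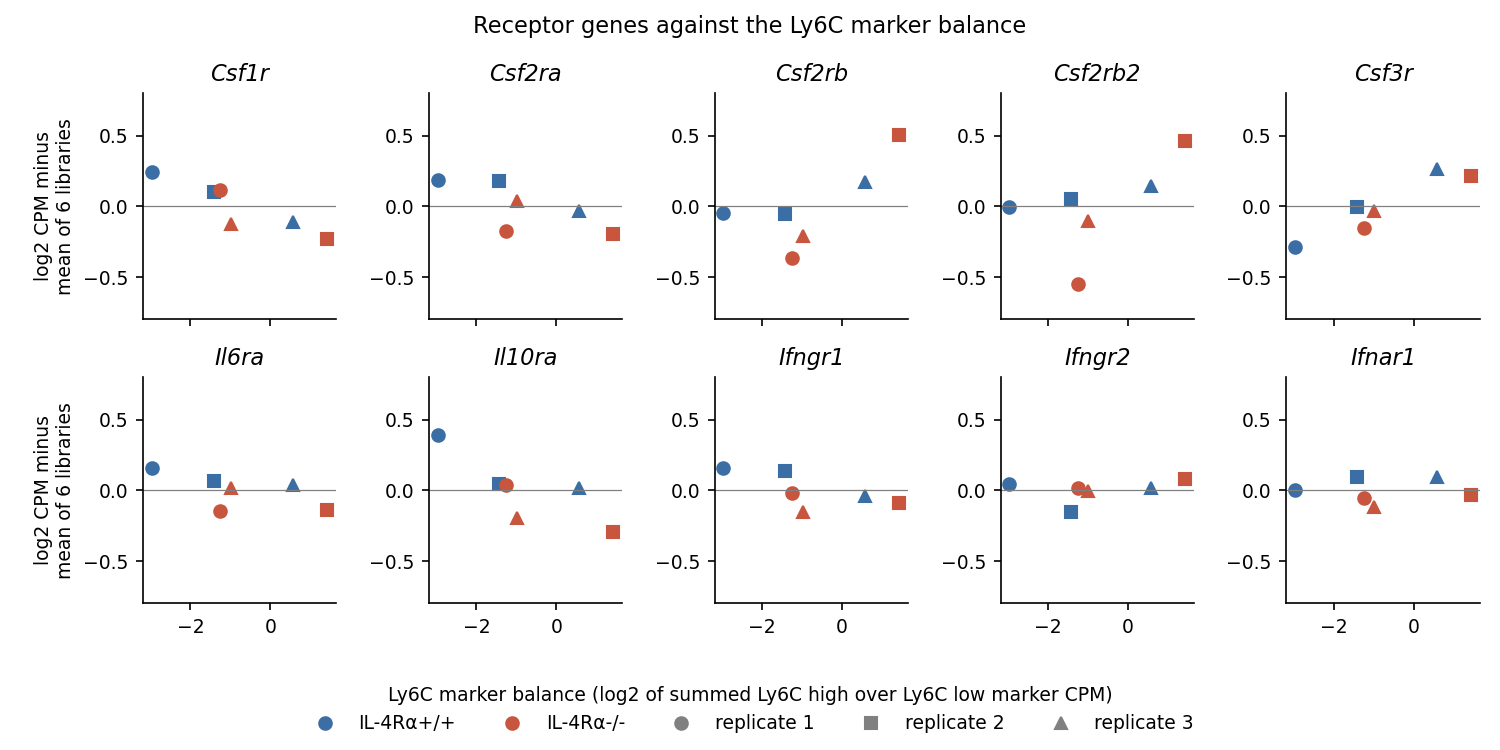
Log2 CPM of each receptor gene minus its mean over 6 libraries, against the Ly6C marker balance in log2 units, with genotypes as colours and replicates as shapes. *Csf3r* climbs and *Csf1r* falls from the left, where IL-4Rα+/+ replicate 1 lies at -2.97, to the right, where IL-4Rα-/- replicate 2 lies at 1.43.

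The members also varied with each other, described here over the same 6 libraries, so that all pairs share the libraries' depth and their differences in marker balance. *Csf2rb* and *Csf2rb2*, whose reads are partly alike, had a Pearson's r of 0.94. *Csf2ra* and *Il6ra* had the same r of 0.94, *Csf1r* and *Il10ra* had 0.90, and *Csf1r* and *Csf3r* ran against each other at -0.85. Of all genes tested, the gene with the highest r was *Wdyhv1* for *Csf1r* (0.995), *Arhgap31* for *Csf2ra* (0.996), *Ube4b* for *Csf2rb* (0.998), *Snord32a* for *Csf2rb2* (0.990) and *Mpc1* for *Csf3r* (0.996). It was *Gm42601* for *Il6ra* (0.998), *Usp31* for *Il10ra* (0.995), *Ap1s3* for *Ifngr1* (0.999), *Bpnt1* for *Ifngr2* (0.996) and *Lrp1* for *Ifnar1* (0.988). With 6 libraries such values are common, and each member had 14 to 135 genes at an r above 0.95.

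The rest of the pathway was measured in the same libraries. Of the ligands, only *Csf1* was present at a level above 1 CPM, at 7.98 to 10.8 CPM, and 7 of 12 ligand genes had at most 3 counts in any library. Of 8 partner chains and Janus kinases, 7 were tested and 0 had an unadjusted p under 0.05 in edgeR, with a median log2 fold change of 0.00. *Jak1*, the kinase bound by many of these receptors, was the most abundant of them at 343 to 383 CPM, with a log2 fold change of -0.09 ± 0.07 (SE). Of 14 other cytokine and growth factor receptors tested, 1 was higher and 1 lower at an unadjusted p under 0.05, and 0 at an adjusted p under 0.15 in edgeR. Over all genes tested, 8.09% had an unadjusted p under 0.05 in edgeR. *Epor*, the erythropoietin receptor, had 3.86, 2.57 and 3.51 CPM in IL-4Rα+/+ and 9.25, 5.01 and 5.61 CPM in IL-4Rα-/- replicates 1, 2 and 3, with a log2 fold change of 1.00 ± 0.30 (SE, unadjusted p = 0.0131 in edgeR). Erythroid markers were also higher in IL-4Rα-/-, with 10 of 10 positive. Their sums were 70.1, 125 and 104 CPM in IL-4Rα+/+ and 165, 170 and 401 CPM in IL-4Rα-/- replicates 1, 2 and 3. Within each genotype *Epor* was highest in replicate 1. The erythroid sum was lowest there, although in IL-4Rα-/- only by 165 beside 170 CPM. The sum of red pulp macrophage markers was highest there, at 4260 CPM in IL-4Rα+/+ and 7653 CPM in IL-4Rα-/-. The part of these markers in the *Epor* values was not tested. *Il21r* had 45.8, 34.8 and 22.5 CPM in IL-4Rα+/+ and 17.9, 17.5 and 23 CPM in IL-4Rα-/- replicates 1, 2 and 3, with a log2 fold change of -0.82 ± 0.26 (SE, unadjusted p = 0.0169 in edgeR).

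Downstream, 11 STAT transcription factors and feedback inhibitors had a median log2 fold change of 0.04. Of the 11, 1 passed an unadjusted p of 0.05 in edgeR, beside 8.09% of all genes tested. That gene, *Stat5a*, which GM-CSF and interleukin-3 receptors activate, had 72.7, 76.9 and 74.0 CPM in IL-4Rα+/+ and 63.4, 66.9 and 67.7 CPM in IL-4Rα-/- replicates 1, 2 and 3. Its values did not overlap and its log2 fold change was -0.18 ± 0.07 (SE, unadjusted p = 0.0349 in edgeR). *Stat5b* also did not overlap, at 196 to 212 CPM in IL-4Rα+/+ and 176 to 189 CPM in IL-4Rα-/- libraries, with a log2 fold change of -0.15 ± 0.07 (SE). *Stat5b* was named after its values were seen. Over all genes tested, 7.87% were lower in IL-4Rα-/- without overlap. *Socs3*, a feedback inhibitor of interleukin-6 receptor signalling, was highest in IL-4Rα-/- replicate 2, at 229 CPM beside 80.5 to 126 CPM in the other libraries, and *Stat3* reached 555 CPM there beside 368 to 549 CPM. Both were also named after their values were seen. Of 12 interferon response genes, 1 was lower at an unadjusted p under 0.05 in edgeR, the transcription factor gene *Irf1*, with 292, 269 and 268 CPM in IL-4Rα+/+ and 250, 245 and 238 CPM in IL-4Rα-/- replicates 1, 2 and 3. The median log2 fold change of that list was 0.03, and 0 genes of these lists passed an adjusted p under 0.15 in edgeR. The counts of pathway genes at an unadjusted p under 0.05 are not read as results about these lists.

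**Figure D5:**
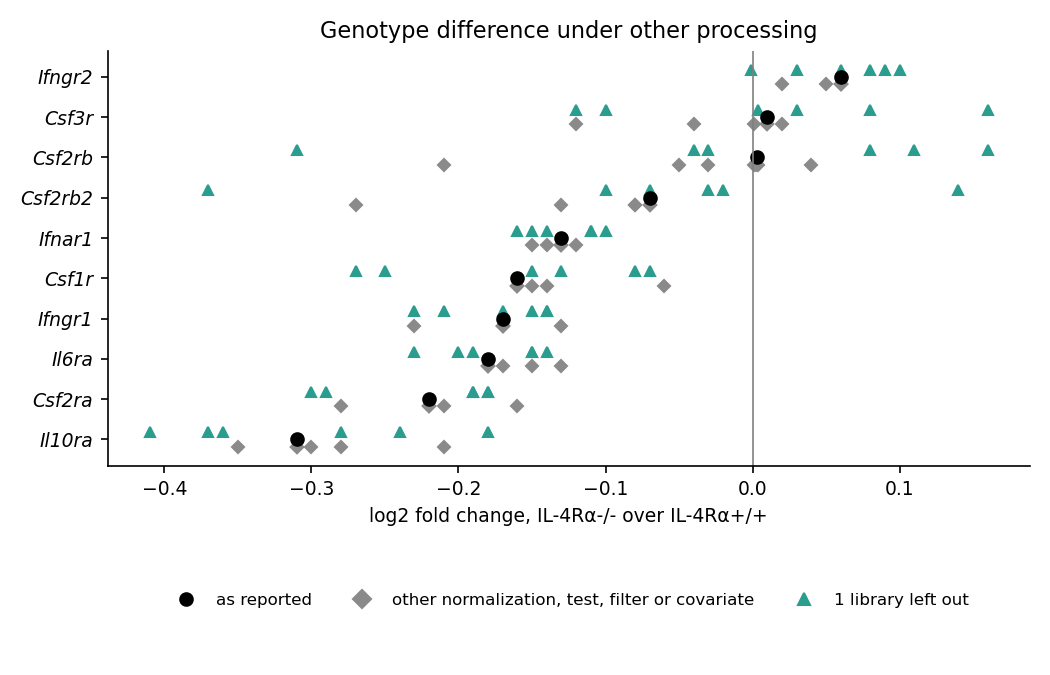
Log2 fold change of each receptor gene as reported (black circles), with another normalization, test, filter or covariate (grey diamonds), and with 1 library left out (green triangles). *Il10ra*, *Csf2ra*, *Il6ra*, *Ifngr1*, *Csf1r* and *Ifnar1* stay below 0 throughout, whereas *Csf2rb*, *Csf2rb2*, *Csf3r* and *Ifngr2* lie on both sides of it.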

How the data were processed

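The authors aligned single-end reads of 75 bases to GRCm38 with STAR 2.6.1a and deposited raw counts of uniquely mapped reads per gene, without normalization. Lines for unmapped, multimapping, ambiguous and unassigned reads were left out of every test. Symbols, lengths and positions came from a Gencode release near the one the authors used, in which 55240 of 55421 identifiers were found. Genes were kept by edgeR's filterByExpr (minimum count 10), scaled by TMM and tested with edgeR (4.0.16, R 4.3.3; glmQLFTest), and p-values were adjusted by Benjamini-Hochberg over 13849 genes. DESeq2 1.42.0 was the other tool, and mafft 7.526 aligned the 2 beta chains. Steps were tested on simulated data. The authors' counts gave 26807281 to 29033297 reads per library, and 1 count was 0.0338 to 0.0378 CPM. The members and gene lists were chosen with earlier results of these data known. Named beside the members were *Il4ra*, each pathway gene at an unadjusted p under 0.05 (otherwise the list's most abundant gene), and the gene most correlated with each member. Libraries of 1 genotype differed beyond sampling noise. The labels name no litter, so litter could not enter the fits. The edgeR and DESeq2 p-values for genotype set its difference against the spread between these 6 mice within their genotypes.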

Additional observations from a re-analysis of the deposited data

Results flagged for a closer look

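Reads that mapped to several places, which no comparison used, took a larger share of all reads in each IL-4Rα-/- library (9.19%, 9.35% and 9.02% in replicates 1, 2 and 3) than in any IL-4Rα+/+ library (8.30%, 8.32% and 8.86%). Such reads include those from the stretches that *Csf2rb* and *Csf2rb2* share, and the files do not say which genes they came from. Reads outside genes also parted the genotypes, at 10.9%, 11.7% and 10.3% in IL-4Rα+/+ and 9.12%, 8.87% and 9.68% in IL-4Rα-/- replicates 1, 2 and 3.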

How the results depend on the processing

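Over 131 alternative values of the 10 members' fold changes, 118 kept the sign and side of the threshold reported, 13 changed sign and 0 passed an adjusted p under 0.15. *Il4ra* stayed between -2.30 and -1.41. The changes of sign were in genes near 0. *Csf2rb* (0.003) turned to -0.05 with the replicate block, -0.03 with *Xist* as a covariate, -0.21 with the Ly6C marker balance and -0.01 with both copies summed. *Csf3r* (0.01) turned to -0.04 with the length trend removed and -0.12 with the marker balance. With 1 library left out, *Csf2rb* ranged from -0.31 to 0.16, *Csf2rb2* from -0.37 to 0.14, *Csf3r* from -0.12 to 0.16 and *Ifngr2* from -0.001 to 0.10.

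The number of genes called was 0 in edgeR under each alternative, with 13842 to 25753 genes tested. It was 80 in DESeq2's test, which was run on all genes in the files without edgeR's filter. Members at an unadjusted p under 0.05 in edgeR were 0 of 10 as reported, beside 8.09% of all genes tested. They were 1 with no filter, 1 with the replicate block and 1 with the *Xist* covariate. The count was 3 with the length trend removed, 1 with the marker balance, and 0 to 3 with 1 library left out (3 without IL-4Rα+/+ replicate 3). The share of all genes under these alternatives is not given here, so these counts are not read as results about the members. Members without overlap were 2 of 10 (15.5% of all genes tested), 3 with no filter (11%), 4 with the length trend removed (13%) and 2 to 5 with 1 library left out (21.4% to 36.9%), where fewer values have to part. They were 5 without IL-4Rα+/+ replicate 3 (36.9%) or IL-4Rα-/- replicate 1 (22.3%) and 4 without IL-4Rα-/- replicate 2 (23.7%). The log2 ratio of *Csf3r* to *Csf1r* ranged from -0.04 to 0.41 and that of *Csf2ra* to *Csf2rb* from -0.35 to 0.13 with 1 library left out. Slopes on the marker balance kept their sign except for *Ifngr2* (-0.004 to 0.05). By the longest transcript, levels were 560 (*Csf1r*), 390 (*Ifngr1*), 281 (*Csf2ra*), 83.2 (*Csf2rb*) and 48.1 CPM per kb (*Ifnar1*). The cause of these changes was not tested. The labels do not say whether the replicate numbers pair the mice. Correlations of the deviations of mice with the same number were 0.185, -0.271 and -0.296, which cannot decide it with so few mice. The marker balance and the summed copies were chosen after seeing the data.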
